A study of Mus musculus with 8 samples.

Results

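At 60 min after tamoxifen, mouse primary keratinocytes had 20 genes at least 1.5-fold higher, and 24 at least 1.5-fold lower, than each of 2 untreated arrays. These are 44 of 9294 measured genes. The genes were chosen by exactly these values, from the array titled 60 min and the 2 arrays titled untreated, so the differences at 60 min describe the choice and carry no test. The genes at the head of the 20 were Adm, which encodes the vasoactive peptide adrenomedullin, and Ccn2, which encodes a matrix-associated growth factor. The gene at the head of the 24 was Stfa3, which encodes a stefin, an inhibitor of cysteine proteases.

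The series holds 8 Affymetrix arrays of cells infected with an EMPTY retrovirus: 2 untreated, and 1 at each of 20, 40, 60, 120, 180 and 240 min after tamoxifen. The empty virus is common to all 8 arrays, so no introduced gene separates the groups. The labels name no mouse strain, age, tamoxifen dose or solvent. No array of cells handled for 60 min without tamoxifen was analysed here, so time and handling cannot be told apart from the drug. The description given to all 8 arrays says that the cells received tamoxifen, the 2 titled untreated included. The titles were used here, so whether those 2 truly had no tamoxifen rests on the titles alone. Nothing in the labels says whether arrays came from separate cultures, so every spread given here may be technical.

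Keratinocytes are the epithelial cells of the epidermis, and in culture they respond within the first hour to changes of medium, growth factors and stress by altering transcription of short-lived messages. Tamoxifen binds the estrogen receptor and is also used to switch on proteins fused to the ligand-binding domain of that receptor, so arrays of cells with an empty vector serve as its background. Amino acid shortage and stress of the endoplasmic reticulum act through the transcription factors ATF4 and CHOP, tension in the actin cytoskeleton acts through YAP and SRF, and inflammatory signals act through NF-kB.

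Values are log2(intensity + 16), a level on a log scale that understates the change of dim genes. The limit of 1.5-fold is a difference of 0.585 on that scale, and every fold given here is of intensity + 16. Median intensities lay between 192 and 198 in the 8 arrays. Of 10 keratinocyte markers 9 were measured. Krt5 and Krt14, basal keratins, had mean levels of 14.11 and 14.29, but Krt15, another basal keratin, had 7.39. All 6 endothelial markers were below the brightness limit of 7.04. Melanocyte markers were bright, with Dct at a mean of 11.89. The 2 untreated arrays differed in cell cycle genes: 33 genes of the G2 and M phases averaged 9.68 in replicate 1 and 8.91 in replicate 2. The 60 min array, at 9.37, lay between them for that mean and for each of the 33 genes. Its Actb 3' minus 5' difference, a sign of RNA integrity, was 0.20, below the 0.26 to 0.28 of the other 7 arrays. For Gapdh the same difference was -0.01, inside the range of -0.07 to -0.00058 of the others. Whether either bears on the 44 genes was not tested.

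The 20 higher genes were 0.215% of the genes measured and the 24 lower genes 0.258%. Under the same limit 1 gene was higher (0.0108%) and 2 lower (0.0215%) at 20 min, and 3 (0.0323%) and 4 (0.043%) at 40 min. At 120 min it was 1 gene in each direction (0.0108% each), at 180 min 1 (0.0108%) and 0 (0%), and at 240 min 2 (0.0215%) and 3 (0.0323%). The 60 min array was taken up because its counts were the largest, so its place in the plot of counts by time is no result. All 6 counts share the same untreated arrays. Between the untreated arrays themselves, over 1 pair, 5 genes were at least 1.5-fold higher in replicate 2 (0.0538%) and 58 lower (0.624%). Against untreated replicate 2 alone, the 60 min array had 120 genes above the limit (1.29%) and 92 below it (0.99%), and against replicate 1 alone it had 22 (0.237%) and 30 (0.323%). Replicate 1 was the array that kept most of the other genes out. The untreated mean ranged from 7.51 to 11.20 among the higher genes and from 7.95 to 11.55 among the lower. The medians were 8.59 and 9.48, against 8.64 over all genes. Some were dim: with the dimmest 50% of probe sets left out, 2 higher genes (Fosl2 and Zfp704) and 1 lower gene (Orm1) were no longer measured.

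**Figure D1:**
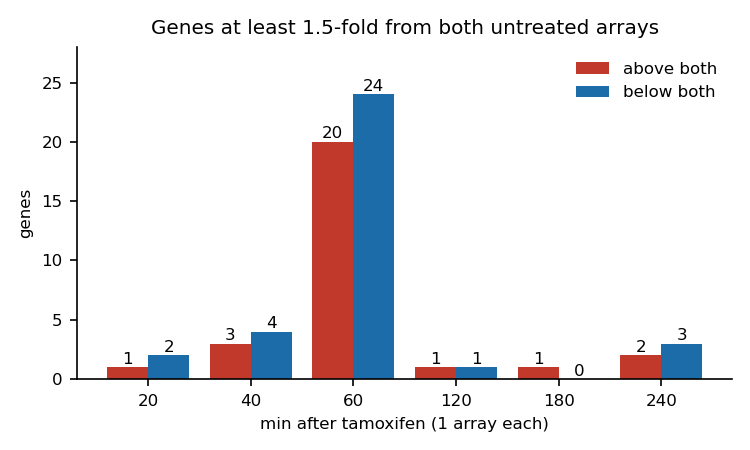
Number of genes (vertical axis) at least 1.5-fold above (red) or below (blue) both untreated arrays at each time after tamoxifen, 1 array per time. The 60 min bars stand at 20 and 24, and no other bar exceeds 4.

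At the edge of the rule, the last higher genes inside it were Zfp622, Fhl1 and Atf5, with differences of 0.593, 0.593 and 0.587 from the nearer untreated array. Just outside it were Pacsin3 (0.584), Plet1 (0.573) and Cdk5rap1 (0.563). On the lower side Lce1f, Moxd1 and Mpp7 were inside at -0.606, -0.602 and -0.597. Mllt11 (-0.577), Ces2e (-0.576) and Icam1 (-0.573) were just outside. The genes on either side of the limit thus differ by a few hundredths, and the plot of the 44 genes shows how many lie close to it.

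**Figure D2:**
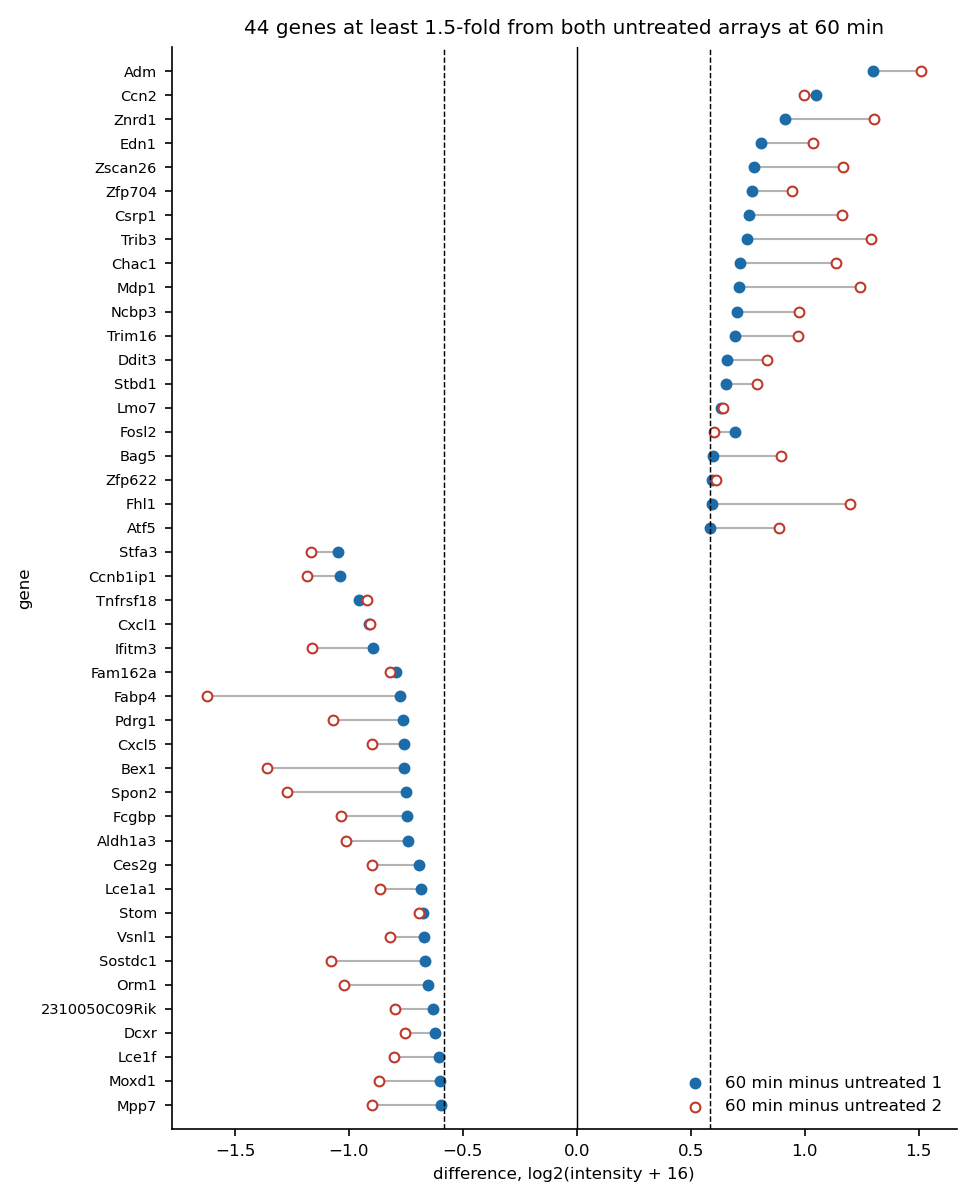
Difference of the 60 min array from untreated replicate 1 (filled) and replicate 2 (open) for each of the 44 genes, on the log2(intensity + 16) scale, with dashed lines at 1.5-fold. Adm lies farthest to the right of the line at 1.30 and 1.51, and Stfa3 and Ccnb1ip1 lead the lower genes.

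Adm and Edn1, which encode peptides that act on blood vessels, were both among the higher genes. Adm had untreated levels of 8.35 and 8.14, and stood at 8.97, 9.16, 9.65, 8.04, 8.15 and 8.32 at 20, 40, 60, 120, 180 and 240 min. In intensity this was 311 and 266 untreated against 788 at 60 min. The 20, 40 and 60 min arrays were all above both untreated arrays, and the 3 later arrays lay within or below the untreated range. At 60 min Adm differed from the nearer untreated array by 1.30, or 2.46-fold. Edn1 encodes endothelin 1, which constricts vessels and also acts on melanocytes. It had levels of 7.73 and 7.50 untreated and 7.98, 8.22, 8.53, 7.53, 7.63 and 7.84 over the times. Its value at 60 min was 0.81 from the nearer untreated array, and its 120 min value fell within the untreated range. The rule favours an extreme at 60 min, so the place of that array is no result for these or the other members. Of the 9 vasoactive peptide and receptor genes measured, these were the 2 past the limit. The natriuretic peptide gene Nppb lay below both untreated arrays, at -0.37 from the nearer. The receptor partner Ramp2 and the endothelin gene Edn2 lay above, each at 0.18. The median of the 9 was 0.05 from the untreated mean, against 0.0042 over all genes.

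The RefSeq bases just before the start of Adm are shown because Adm led the 44 genes. The 250 bases before each start were searched on both strands for 8 short motifs, and any match is in capitals. For the element of ATF4 the letters searched were TGATGNAA. For the element of CREB they were TGACGTCA, which match in 1.55% of the 32851 RefSeq stretches of this length. For hypoxia-inducible factors they were ACGTG, for AP-1 TGANTCA and for the TATA box TATAAA. For the YAP partners of the TEAD family they were GGAATG, which match in 12.6% of stretches, and the CArG box of SRF (1.47%) and the NF-kB motif were searched as well. The shares of the others stand beside their matches, and a CArG box can contain the TATA box letters. A gene is counted if any of its stretches matches, so gene counts and shares per stretch are not alike. The TEAD letters occur in Edn1 and Bag5 among the higher genes and in Bex1 and Stom among the lower. The CREB letters occur in Znrd1 and a CArG box in Stbd1 and Fhl1 among the 17 higher genes with a stretch, and neither occurs in the lower genes. None of the 8 occurs in the Adm stretch (chr7:110627407-110627656, plus strand, GRCm38.p6).
Adm: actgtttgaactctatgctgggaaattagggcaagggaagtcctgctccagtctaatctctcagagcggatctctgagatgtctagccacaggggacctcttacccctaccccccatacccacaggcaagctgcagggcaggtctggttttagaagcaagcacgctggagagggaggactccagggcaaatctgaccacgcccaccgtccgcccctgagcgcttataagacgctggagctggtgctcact

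Ccn2 was second to Adm in its difference from the nearer untreated array. This target of YAP and of TGF-beta had levels of 8.85 and 8.90 untreated and 9.27, 9.45, 9.90, 9.22, 9.07 and 9.02 at the successive times. Every tamoxifen array lay above both untreated arrays, with the highest at 60 min, 1.99-fold from the nearer untreated array. Unlike Adm it stayed above them at 120 min. Csrp1, Fhl1 and Lmo7, which stand on none of the lists, encode LIM domain proteins that associate with actin or cell junctions. Their differences from the nearer untreated array at 60 min were 0.76, 0.59 and 0.63. Lmo7 had nearly equal untreated levels, 9.95 and 9.94, and reached 10.58 at 60 min, whereas those of Fhl1 were 10.39 and 9.78. Of 26 YAP and SRF target genes measured, Ccn2 alone was past the limit, while 19 lay above both untreated arrays and 2 below. The focal adhesion gene Zyx (0.51), the tissue factor gene F3 (0.40) and the myosin light chain gene Myl9 (0.31) came next. The list's median was 0.15. Over all genes, 3704 of 9294 lay above both untreated arrays and 3463 below, the background for the list counts that follow.

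Stress genes of the ATF4 and CHOP pathway gave 4 of the 20 higher genes: Trib3, Chac1, Ddit3 and Atf5. Trib3 encodes a pseudokinase induced by CHOP. It stood at 9.78 and 9.24 untreated and at 10.07, 10.39, 10.53, 9.31, 9.47 and 10.01 over the times. The 60 min array was the highest, but the untreated arrays were 0.54 apart and the 120 and 180 min values fell between them. Chac1 encodes an enzyme that degrades glutathione. Its levels were 9.46 and 9.04 untreated and 9.67, 9.85, 10.18, 9.52, 9.26 and 9.64 afterwards. The 120 and 240 min values, like those of the first hour, lay above both untreated arrays. Ddit3 encodes CHOP itself. Its intensities were 388 and 342 untreated and 480, 496, 622, 330, 362 and 415 over the times, and the 3 first-hour arrays did not overlap the untreated ones. Atf5, a transcription factor gene translated under stress, was 0.59 from the nearer untreated array. Of 26 genes of the list measured, 18 lay above both untreated arrays and 4 below, with a median of 0.16. Atf4 itself was at 0.36 from the nearer array, the amino acid transporter subunit gene Slc3a2 at 0.30, the folate enzyme gene Mthfd2 at 0.29 and the transporter gene Slc7a3 at 0.24. The list was known from earlier results on these arrays, and its counts are no independent evidence. A second probe set of Trib3 gave 0.79 and 1.16 from the 2 untreated arrays.

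The RefSeq bases before the starts of 3 of these genes are printed because the genes share a pathway with a known DNA element. The element bound by ATF4 with C/EBP proteins contains the letters TGATGNAA. It occurs in 3.45% of all stretches, and among the 17 higher genes with a stretch it occurs in 1, Chac1 (chr2:119350992-119351241, plus strand), where it lies on the opposite strand. Among the 16 lower genes with a stretch it also occurs in 1, Ifitm3. In Trib3 (chr2:152344061-152344310, minus strand) the capitals mark TATAAA, found in 12.4% of stretches. In Ddit3 (chr10:127290543-127290792, plus strand) they mark the AP-1 letters TGANTCA, found in 6.75%. No match says only that the letters are not in this window.
Chac1: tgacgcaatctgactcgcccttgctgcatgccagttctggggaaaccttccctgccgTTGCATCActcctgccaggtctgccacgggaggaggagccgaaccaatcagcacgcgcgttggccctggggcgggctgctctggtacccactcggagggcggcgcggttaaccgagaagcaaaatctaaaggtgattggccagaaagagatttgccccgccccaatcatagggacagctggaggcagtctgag
Trib3: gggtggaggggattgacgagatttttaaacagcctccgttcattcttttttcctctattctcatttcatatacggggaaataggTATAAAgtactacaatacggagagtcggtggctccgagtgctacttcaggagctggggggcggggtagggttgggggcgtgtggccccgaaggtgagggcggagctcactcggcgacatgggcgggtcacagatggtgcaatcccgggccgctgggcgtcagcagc
Ddit3: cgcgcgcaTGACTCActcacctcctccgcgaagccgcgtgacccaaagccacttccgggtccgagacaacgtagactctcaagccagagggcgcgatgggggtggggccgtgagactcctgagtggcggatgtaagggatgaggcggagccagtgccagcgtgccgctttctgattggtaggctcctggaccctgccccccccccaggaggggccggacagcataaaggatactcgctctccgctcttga

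Fosl2 encodes a subunit of the AP-1 transcription factor and was the only one of 32 immediate early genes past the limit. Its levels were 7.46 and 7.55 untreated, 7.56 and 7.38 at 20 and 40 min, 8.16 at 60 min and 7.88, 7.76 and 7.85 later. It was thus near the untreated level until 40 min, and its 3 later arrays stayed above both untreated arrays. In the same list Gadd45a (0.55) and Gadd45b (0.39), growth arrest genes, lay above both untreated arrays at 60 min, and the immediate early gene Ier3 (-0.38) and the antiproliferative gene Btg2 (-0.38) below. Of the list, 10 genes lay above both and 13 below, with a median of -0.0054.

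The remaining higher genes had mixed roles. Znrd1, a subunit gene of RNA polymerase I, stood at 7.92 and 7.53 untreated and 8.84 at 60 min, and was the only one of 22 RNA polymerase subunit genes past the limit. Ncbp3 encodes a cap-binding protein, Bag5 a partner of the chaperone Hsp70, Stbd1 a glycogen-binding protein, Mdp1 a phosphatase, and Trim16 a protein of the TRIM family also known as estrogen-responsive B box protein. Their differences from the nearer untreated array were 0.70, 0.60, 0.66, 0.71 and 0.70. Trim16 is not on the list of estrogen and tamoxifen response genes. Of the 7 measured genes of that list, 0 were past the limit, 3 lay above both untreated arrays and 1 below. Zscan26, Zfp704 and Zfp622 encode zinc finger proteins and stood at 0.78, 0.77 and 0.59. Zfp704 was close to the untreated arrays (7.63 and 7.46) at 20 and 40 min (7.56 and 7.68), and of its tamoxifen arrays only that at 60 min, 8.40, lay more than 0.1 outside their range. For Zfp704 a second probe set gave 0.06 and 0.30 from the untreated arrays, and for Mdp1 one further probe set gave -0.05 and -0.0034 and another 0.60 and 0.78, so the probe sets of these genes disagree.

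Among the lower genes Stfa3 had levels of 11.13 and 11.25 untreated and 11.06, 10.42, 10.08, 11.19, 10.77 and 10.90 at 20, 40, 60, 120, 180 and 240 min. In intensity it stood at 2222 and 2416 untreated and at 1067 at 60 min, 2.07-fold below the nearer array. The 40 and 60 min arrays were clearly the lowest, and the 120 min value lay between the untreated ones. In cultures such a difference cannot tell fewer cells of a type from less RNA per cell. Stefins form a family of near-identical copies whose probes may cross-react, so the value is uncertain as to the copy. Of the 4 stefin and cystatin genes measured, Stfa3 alone was past the limit: Cstb and Cst3, which encode cystatins, were at -0.12 and -0.09, and Cst6, a cystatin of the upper epidermis, lay above at 0.29.

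Lce1a1 and Lce1f encode late cornified envelope proteins of the outer epidermis, and 2310050C09Rik lies near them in the genome. Lce1a1 had levels of 9.43 and 9.61 untreated and 8.80, 8.89, 8.75, 10.06, 9.19 and 9.18 over the times. Unlike Stfa3 it was already low at 20 min, and at 120 min it exceeded both untreated arrays. Lce1f and 2310050C09Rik followed the same course, with 7.90 and 7.54 at 20 min, 7.78 and 7.36 at 60 min and 9.06 and 8.62 at 120 min. All 9 measured genes of the Lce family were then looked up, after these members were known: 2 were past the limit, 8 lay below both untreated arrays and 0 above. Among the rest, Lce1i was at -0.50 and Lce1h lay between the untreated arrays. The probe sets of Lce1d, Lce1h, Lce1i and Lce3c have the suffix that marks possible cross-hybridisation. The 9 genes may therefore not be separate readings. Ordered along the chromosome, 5 protein-coding genes lie between Lce1a1 and Lce1f and 7 between Lce1f and 2310050C09Rik. None of 26 listed suprabasal, cornified and wound keratinocyte genes passed the limit. Of these, 15 lay below both untreated arrays and 6 above, with a median of -0.09. Nearest to the limit were S100a9 (-0.50), an antimicrobial calcium-binding protein gene, and Lor (-0.49), which encodes loricrin.

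Of the listed genes of inflammation and defence, 4 were among the lower genes and most were not past the limit. Cxcl1 encodes a chemokine that attracts neutrophils. It stood at 8.65 in both untreated arrays and at 8.25, 8.12, 7.74, 8.43, 8.40 and 8.38 afterwards. All 6 tamoxifen arrays lay below the untreated arrays, that at 60 min by 1.88-fold. Cxcl5, a second neutrophil chemokine gene, was at 8.10 and 8.24 untreated, 7.34 at 60 min and 8.43 at 120 min. In RefSeq order 4 protein-coding genes lie between Cxcl1 and Cxcl5. Of 21 NF-kB and chemokine genes measured, these were the 2 past the limit, 14 lay below both untreated arrays and 6 above, with a median of -0.13. Il1a was at -0.40 and the NF-kB subunit gene Relb at 0.28. Tnfrsf18, a TNF receptor family gene also known as GITR, had levels of 9.40 and 9.36 untreated and 8.77, 8.72, 8.44, 9.71, 9.33 and 9.10 over the times. Its first-hour arrays were low, and at 120 min it exceeded both untreated arrays. It was the only one of 15 genes of its family past the limit, 9 lay below both untreated arrays and 3 above, with a median of -0.10. Tnfrsf12a lay above both untreated arrays at 0.24. Ifitm3, which restricts virus entry, had 11.41 and 11.69 untreated and 11.09, 10.79, 10.52, 11.91, 11.44 and 11.09 afterwards. The 60 min array was the lowest, a place that the rule favours. Of 19 interferon-linked genes measured it alone was past the limit, 10 lay below both untreated arrays and 6 above, with a median of -0.06. Its relative Ifitm2 was at -0.16.

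The RefSeq stretch before Cxcl1 (chr5:90890995-90891244, plus strand) is shown because it holds the binding motif of NF-kB. The motif is marked in the capitals 71 to 61 bases before the start, and occurs in 7.25% of all RefSeq stretches of this length. Among the 16 lower genes with a stretch it occurs in 3, Cxcl1, Ifitm3 and Moxd1. Among the 17 higher genes it occurs in 2, Fosl2 and Atf5. The upstream capitals mark the letters ACGTG on the opposite strand, which match in 16.6% of stretches. A match is a description of letters and not a site.
Cxcl1: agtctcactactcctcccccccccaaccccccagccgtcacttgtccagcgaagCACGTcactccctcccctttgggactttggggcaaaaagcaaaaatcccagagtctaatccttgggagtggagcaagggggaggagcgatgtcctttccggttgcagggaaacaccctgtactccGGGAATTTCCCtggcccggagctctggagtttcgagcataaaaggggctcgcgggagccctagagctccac

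The other lower genes included secreted, metabolic and membrane proteins. Ccnb1ip1, which encodes a ubiquitin ligase that interacts with cyclin B1, had levels of 8.51 and 8.65 untreated and 8.13, 7.94, 7.46, 8.41, 8.36 and 7.97 over the times. It was low again at 240 min. Fam162a, a hypoxia-induced mitochondrial protein gene, had 11.54 and 11.57 untreated and 11.17, 10.96, 10.75, 11.46, 11.42 and 11.32 over the times. All tamoxifen arrays lay below both untreated arrays. Of 22 hypoxia and glycolysis genes measured it alone was past the limit. Aldoc and Slc2a1, an aldolase and a glucose transporter, lay below at -0.43 and -0.31, and the stress gene Ndrg1 above at 0.39. Aldh1a3 makes retinoic acid, Ces2g is a carboxylesterase and Dcxr a carbonyl reductase, and the differences were -0.74, -0.69 and -0.62. For Aldh1a3 a further probe set gave only -0.08 and -0.19 from the untreated arrays. Sostdc1, a secreted antagonist of BMP and Wnt signals, Spon2, a secreted matrix protein, and Orm1, an acute-phase protein, were at -0.66, -0.75 and -0.65. Pdrg1 (-0.76), a p53-regulated gene, Bex1 (-0.76), a brain-expressed X-linked gene, Fcgbp (-0.75), which encodes an IgG Fc-binding mucin-like protein, the membrane protein gene Stom (-0.68), the calcium sensor gene Vsnl1 (-0.67), Moxd1 (-0.60) and the polarity scaffold gene Mpp7 (-0.60) complete the group. Moxd1 and Ccn2 are direct neighbours in RefSeq with 0 protein-coding genes between them, and lay on opposite sides.

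Fabp4, a fatty acid binding protein best known from adipocytes, had the widest spread. Its levels were 9.79 and 10.63 untreated and 9.50, 9.28, 9.01, 10.95, 10.07 and 9.51 at the successive times. The untreated arrays were themselves 0.84 apart, more than the difference of 0.78 that separates 60 min from the nearer. A further probe set gave -0.12 and -0.23 and another -0.79 and -1.61. Of the 6 adipocyte markers 3 were measured, and Adipoq was below the brightness limit. Of the 3, 2 lay below both untreated arrays and 1 above. Their summed intensity was 838 at 60 min against 1180 and 1878 untreated. Fabp4 alone, chosen for its low value, gave 500 of this against 869 and 1573, so the sums follow Fabp4 and not the markers together. The lists of other cell types did not share a direction at 60 min. Over all genes, 3463 of 9294 lay below both untreated arrays and 3704 above. All 6 measured of 10 leukocyte and Langerhans cell markers lay below both untreated arrays, with a summed intensity of 911 against 1002 and 1115. These 6 were dim, with mean levels of 7.06 to 7.86 against the limit of 7.04. The defining markers Cd207 and Ptprc were below the brightness limit. Of 9 measured of 12 fibroblast markers, 7 lay below both and 0 above, with sums of 2680 against 2943 and 3043. Sparc had a mean level of 10.54 and weighs heavily in these sums. The other measured fibroblast markers were dim, at 7.12 to 8.07, and Dcn and Lum were below the brightness limit. Of 6 measured melanocyte markers, 4 lay above both and 0 below, with sums of 9651 against 9510 and 9117. Of 4 measured muscle markers, 2 lay above and 1 below. The part of other cells in the 44 genes was not tested.

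The values of the neighbouring times are given next. Among the 20 higher genes the median difference from the untreated mean was 0.38, 0.55, 0.88, -0.13, -0.0048 and 0.35 at 20, 40, 60, 120, 180 and 240 min. Among the 24 lower genes it was -0.40, -0.60, -0.85, 0.31, -0.03 and -0.34. Over all genes these medians lay between -0.03 and 0.0091. The values share the untreated arrays, and the 60 min ones were chosen. The heat map of the 44 genes shows the members one by one. Fosl2, Ccn2 and Chac1 were still 0.37, 0.34 and 0.27 above the untreated mean at 120 min. The rule favours an extreme at 60 min, so nothing is read from the place of that array among the 6 tamoxifen arrays. The median of 60 min minus 40 min was 0.32 for the higher and -0.26 for the lower genes.

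**Figure D3:**
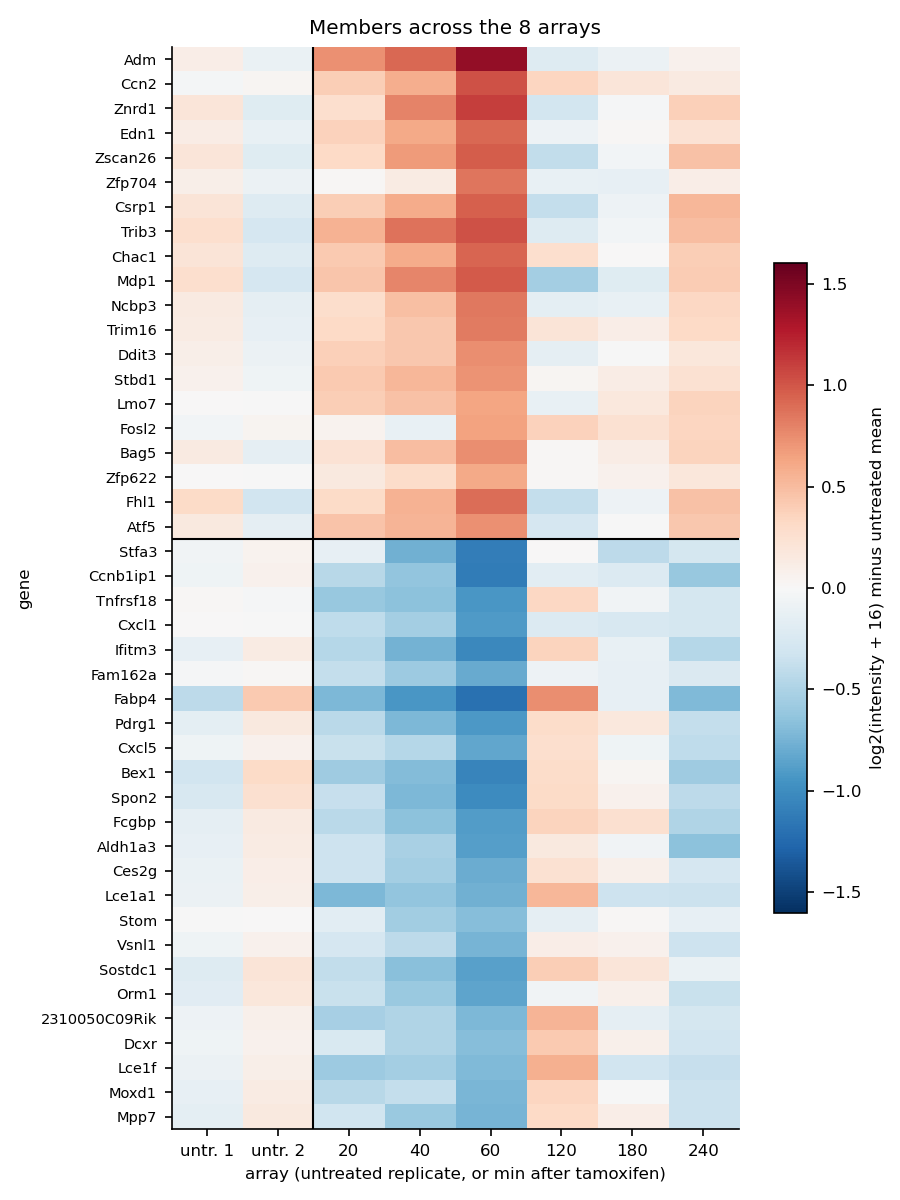
Level of each of the 44 genes in each array minus its untreated mean, on the log2(intensity + 16) scale (red above, blue below), with the 20 higher genes over the 24 lower. The median of the higher genes moves from 0.38 at 20 min to 0.88 at 60 min and to -0.13 at 120 min.

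**Figure D4:**
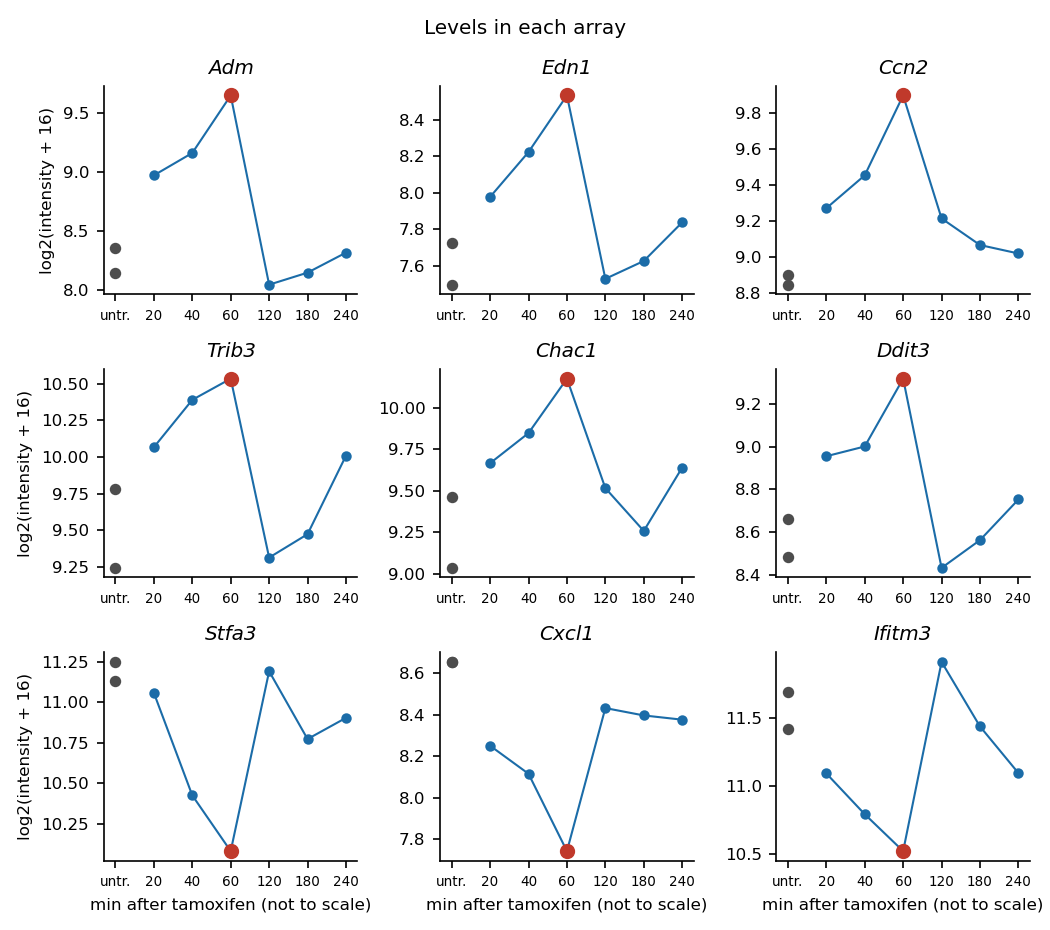
Levels of 9 of the genes in the 2 untreated arrays (grey) and at each time after tamoxifen (blue, with 60 min in red), on the log2(intensity + 16) scale. Adm is highest at 60 min (9.65) and back at 8.04 at 120 min, and Stfa3 is lowest at 60 min (10.08) and at 11.19 at 120 min.

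The arrays that the rule did not use allow a comparison within the time course. At 40 min the level was above that at 120 min for 19 of the 20 higher genes, with a median difference of 0.61, where 42.4% of all genes were above. Of these, 11 were at least 1.5-fold above, against 1.14% of all genes. At 40 min the level was below that at 120 min for all 24 lower genes, with a median of -0.91, where 57.6% of all genes were below. Of these, 18 were at least 1.5-fold below, against 1.04% of all genes. From 20 to 40 min, 19 of the 20 higher genes were higher at the later time, where 45.1% of all genes were, and 20 of the 24 lower genes were lower, where 54.9% were. Fosl2 was the exception among the higher genes in both comparisons. The 4 exceptions among the lower genes from 20 to 40 min were Lce1a1, Lce1f, 2310050C09Rik and Moxd1. Each time has 1 array, so these are counts over genes that vary together and not over replicates.

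The mean of 20 and 40 min was then tested against the mean of 120, 180 and 240 min with limma over all 9294 genes. No gene passed at an adjusted p under 0.05, so the background is 0% in each direction, and none of the 44 genes passed. The smallest adjusted p was 0.292, that of Adm, whose means were 9.07 and 8.17 and whose difference was 0.90 ± 0.10 (SE). At an unadjusted p under 0.05 there were 404 genes (4.35%) with the early arrays higher and 839 (9.03%) with them lower. Among the higher genes 9 of 20 met this with the early arrays higher, and Fosl2 met it in the opposite direction (-0.36 ± 0.07, SE, adjusted p = 0.361 in limma). Among the lower genes 15 of 24 met it with the early arrays lower. After Adm and Fosl2, the smallest p belonged to Stbd1 (0.35 ± 0.08), Sostdc1 (-0.69 ± 0.15), Ddit3 (0.40 ± 0.09), Fam162a (-0.34 ± 0.08), Edn1 (0.44 ± 0.11) and Tnfrsf18 (-0.63 ± 0.16), each with an adjusted p of 0.361 in limma. Both early arrays lay above all 3 later ones for 10 of the higher genes (11.7% of all genes) and below them for 13 of the lower genes (22.3%). The early mean was above the late mean for 19 of the 20 higher genes, where 40.6% of all genes were, and below it for all 24 lower genes, where 59.4% were, as the histogram of these differences shows. For Fabp4 the difference was -0.79 ± 0.37 and for Stfa3 -0.21 ± 0.20.

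**Figure D5:**
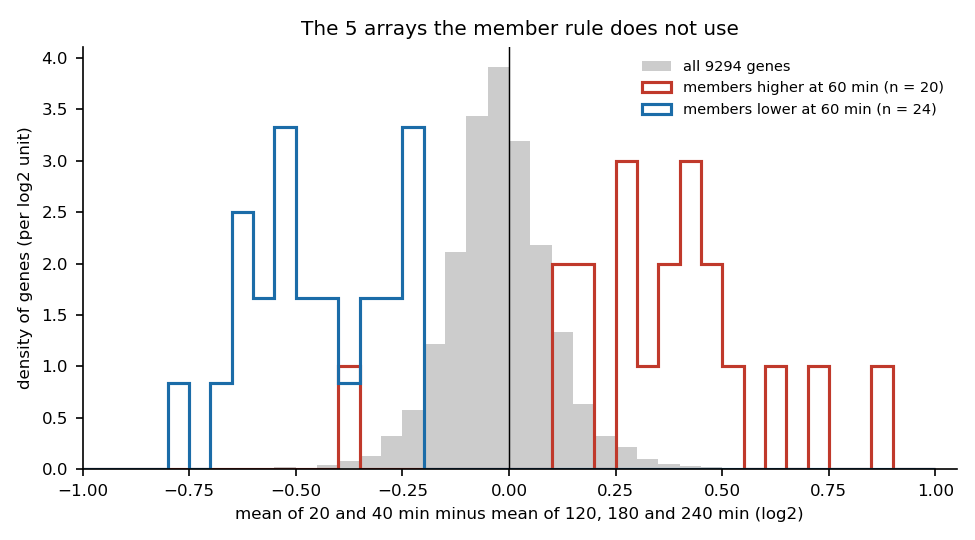
Distribution over genes (vertical axis, density) of the mean of 20 and 40 min minus the mean of 120, 180 and 240 min (log2), for all 9294 genes (grey), the 20 higher genes (red) and the 24 lower genes (blue). All lower genes lie left of 0, and all higher genes but Fosl2 lie right of it.

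The result of that test rested on the 240 min array. Without it, 20 and 40 min against 120 and 180 min gave 522 genes with the early arrays higher (5.62% of all genes) and 762 with them lower (8.2%) at an adjusted p under 0.05 in limma. Among these were 14 of the 20 higher genes, 1 in the opposite direction (Fosl2), and 20 of the 24 lower genes. Each of the 4 arrays in this fit is a different time and none is a replicate. Its p-values therefore measure a spread between neighbouring times and not between replicates. The G2 and M phase means were 9.16 and 9.49 in its early arrays and 8.92 and 9.02 in its late ones. Whether these bear on the calls was not tested. In this fit Adm differed by 0.97 (adjusted p = 0.00447 in limma), Csrp1 by 0.73, Trib3 by 0.83, Tnfrsf18 by -0.77 and Pdrg1 by -0.81. Ccn2 (0.22, adjusted p = 0.0908) and Stfa3 (-0.24, adjusted p = 0.427) did not pass. Leaving out any one of the other 4 arrays gave 0 genes, with smallest adjusted p between 0.529 and 0.961. At 240 min the higher genes had a median of 0.35 above the untreated mean and the lower genes -0.34, on the side of the first-hour arrays.

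The 2 untreated arrays also differed in the 44 genes. The rule used both arrays to choose the genes, so the counts between those 2 arrays carry no test. Untreated replicate 2 was below replicate 1 for 18 of the 20 higher genes, with a median of -0.27, and above it for 22 of the 24 lower genes, with a median of 0.20. Over all genes it was below for 3950 of 9294 and above for 5344, with a median of 0.02. The G2 and M phase mean was lowest in untreated replicate 2 and at 120 min, 8.91 and 8.92, and was 9.16, 9.49, 9.02 and 9.59 at 20, 40, 180 and 240 min. At 120 min 13 of the 20 higher genes lay below the untreated mean and 19 of the 24 lower genes above it. Whether this bears on the 44 genes was not tested. For 8 of them the untreated arrays lay less than 0.1 apart, as they did for 58.3% of all genes: Ccn2, Lmo7, Fosl2 and Zfp622 among the higher, and Tnfrsf18, Cxcl1, Fam162a and Stom among the lower. Their 60 min values were 1.02, 0.64, 0.65, 0.60, -0.94, -0.91, -0.81 and -0.68 from the untreated mean. These values also chose the genes, so close untreated arrays do not make them independent evidence.

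Other probe sets gave a further reading of the same RNA, on the same arrays that chose the genes, so their agreement is no independent evidence. Of the 44 genes 14 had others, 24 in all, and 22 of these lay on the same side of both untreated arrays at 60 min, with 8 past 1.5-fold. The exceptions were one probe set of Mdp1 and a dim one of Stom. Among those past it against both untreated arrays were probe sets of Csrp1 (0.77 and 1.17), Vsnl1 (-0.81 and -0.89), Lce1a1 (-0.61 and -0.83) and Pdrg1 (-0.72 and -1.13). Those of Trim16 (0.58 and 0.59) and Zfp622 (0.52 and 0.57) were just short of it. With the mean over probe sets, 17 of the 20 higher and 20 of the 24 lower genes stayed past the limit. Short of it from the nearer untreated array were Mdp1 (0.42), Zfp704 (0.41), Zfp622 (0.56), Fabp4 (-0.56), Aldh1a3 (-0.45), Sostdc1 (-0.50) and Stom (-0.50). The other 30 genes had 1 probe set each. Of the 44 probe sets used, 31 had no suffix marking shared sequence and 2, of Trib3 and Zfp622, had the suffix that marks possible cross-hybridisation.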

How the data were processed

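Total RNA, extracted with Trizol, was made into biotinylated cRNA for Affymetrix arrays, per the labels. What the authors deposited for each of 8 arrays is a linear intensity per probe set, 22690 in number. Neither the probe summary nor the scaling is stated in the labels or files, so any bias of that step remains in the values. They were used as deposited, as log2(intensity + 16). Groups come from the sample titles.

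The platform annotation gave 1 gene symbol to 20380 probe sets, several to 691 and none to 1555, beside 64 controls. The dimmest 30% (mean log2 below 7.04) were left out, and the brightest remaining probe set stood for each of 9294 genes. All 44 members were found in RefSeq (GRCm38.p6) by symbol, and 33 had a promoter sequence there. With 1 array per time, the 60 min differences have no test. The 5 arrays outside the rule were compared with limma 3.58.1 in R 4.3.3 (lmFit, eBayes, Benjamini-Hochberg over all genes, 3 residual degrees of freedom). Pooled arrays are different times, so their spread includes differences between times. The test was checked on simulated arrays.

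The members and the 29 gene lists were chosen with earlier results of these data known. Named genes are all members, those beside the limit, and up to 4 others per list by difference from the nearer untreated array. A planned ranking of genes by likeness to Adm was not used. The number of arrays limits the precision. Alternatives were the pseudocount, dim filter, scaling, probe set choice, fold limit, variance trend and leaving out single arrays.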

Additional observations from a re-analysis of the deposited data

How the results depend on the processing

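All 44 genes, and the 6 just outside the limit, kept the direction of their 60 min difference under every alternative in which they were measured. For the same probe set, another pseudocount or dim filter, or leaving out 1 untreated array, cannot reverse the direction of genes chosen this way. The direction could have changed only under the scalings and the mean over probe sets. The counts of higher and lower genes stayed within 1.5 times the reported 20 and 24 under other pseudocounts, filters, scalings and the mean over probe sets. They lay between 14 and 23 for higher and between 18 and 28 for lower genes. At 2-fold they were 1 and 2, and at 1.4-fold 34 and 52, by construction of the limit. Leaving out 1 untreated array gave 22 to 120 higher genes and 30 to 92 lower genes, the larger counts without replicate 1. In the comparison of 20 and 40 min with 120 to 240 min, 0 genes passed (limma; 1243 at an unadjusted p under 0.05). Leaving out 1 array gave 0 to 1284 genes, the latter without 240 min. Other settings gave 0, with smallest adjusted p between 0.186 and 0.374. Where leaving out 20 or 40 min left 1 early array, that array was assumed to vary like the others. No paired analysis was possible because the labels give no replicate numbers and each tamoxifen time has 1 array. Dim genes near the brightness limit have compressed differences.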
